A study of Mus musculus with 12 samples.

Results

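The 9 genes described here encode the parts with which a cell shows peptides to CD4+ T cells and adds the costimulatory signal: the class II transactivator Ciita, the chains H2-Aa, H2-Ab1 and H2-Eb1 of the major histocompatibility complex (MHC) class II molecules, the invariant chain Cd74, the peptide editors H2-DMa and H2-DMb1, and the B7 ligands Cd80 and Cd86. They were listed by gene symbol, with earlier results of these data known. All 9 were found among the 35492 gene symbols of each library. All 9 passed the filter for low values, a group mean of 1 TPM (the length-corrected unit of the deposited transcript abundances) or above in at least 1 group. The 12 RNA libraries, 3 in each of 4 groups, were made from 300000 CD4+ T cells of C57BL/6J mice aged 7 weeks. Tfh_TILS cells carried CXCR5 and PD1 in addition to CD4, the combination by which follicular helper T (Tfh) cells are sorted, and were taken from tumours of MC38, a mouse line of colon carcinoma. Tfh_Vitro cells were naive wild-type cells of spleen and lymph nodes, cultured on plates coated with CD3 and CD28 antibodies, with IL-6 and IL-21 at 50 ng/ml each while IL-4, IFNγ and TGFβ were blocked by antibodies. Tfh_OTII cells had the same cytokines but came from OT-II mice, in which the T cell receptor is a transgene specific for ovalbumin. Th1_Vitro cells were wild-type cells cultured on such plates with IL-12 at 10 ng/ml and an antibody that blocks IL-4, so that IFNγ was blocked in both Tfh cultures and not in this one. Culture lasted 48 h for all by the treatment protocol, but the titles give 24 h for Tfh_Vitro and Th1_Vitro and 48 h only for Tfh_OTII, which by the titles thus differs from Tfh_Vitro in time as well as receptor. No label says that the libraries of a group came from separate animals or cultures, so p-values measure the spread between libraries, which may be technical.

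Class II molecules are heterodimers of an alpha and a beta chain that carry peptides from the endosomal pathway. The invariant chain fills their groove until endosomal proteases degrade it, and the DM heterodimer then exchanges its last fragment for other peptides. Dendritic cells, B cells and macrophages express these genes at high level, interferon gamma induces them through Ciita in many other cells, and mouse T cells are known for little or no class II synthesis. Ciita binds no DNA itself but is recruited to the promoters of class II genes by the RFX complex at the X box and by NF-Y at the Y box. Cd80 and Cd86 are the ligands that both the activating receptor Cd28 and the inhibitory receptor Ctla4 bind.

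The promoters of H2-Aa and H2-Eb1 are shown because both genes differed between the groups and both hold the paired boxes that Ciita acts through. Sequences are those of RefSeq on GRCm38.p6, read 5′ to 3′ on the strand of the gene up to the last base before its transcript. H2-Aa is taken from chr17:34287824-34287917 on the minus strand, and H2-Eb1 from chr17:34305763-34305866 on the plus strand. The first run of capitals in each marks a match to CTNGNAACT, the X box letters, and the second a match to TGATTGG, the Y box letters.
H2-Aa: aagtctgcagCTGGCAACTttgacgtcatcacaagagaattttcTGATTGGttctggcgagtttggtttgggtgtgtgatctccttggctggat
H2-Eb1: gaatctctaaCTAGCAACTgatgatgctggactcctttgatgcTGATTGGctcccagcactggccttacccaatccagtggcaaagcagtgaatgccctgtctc
In H2-Aa the X match starts at position -84 and the Y match at position -50 from the first transcribed base, with 25 bases between them. In H2-Eb1 the matches start at positions -94 and -61, with 24 bases between them. H2-DMb1 holds the letters CTAGTAACT at position -97 and TGATTGG at position -63, again 25 bases apart. These positions count from the RefSeq first base, 34153191. GENCODE starts H2-DMb1 at 34153072, so both matches lie inside the gene as GENCODE places it. Of the 9 genes, 5 had an entry in the promoter table, and the windows of H2-DMa (2 start sites) and Cd80 hold neither set of letters. These windows also lie inside the genes as GENCODE places them, so the GENCODE starts of H2-DMa and Cd80 were not searched. Both motifs were written down after these windows had been read, and both strands were searched. Over 32851 promoter windows of 250 bases, 3.47% held the X letters, 7.23% the Y letters and 0.265% both. These letter matches are a description of sequence and not evidence of binding.

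Levels are given in TPM, which sum to the same total in each library. The median-of-ratios size factor, which measures how far the typical gene of a library stands from that of the other libraries, was 0.472 to 0.678 in Th1_Vitro and 1.09 to 1.43 in the other groups. Values as deposited therefore run low for the typical gene of Th1_Vitro, though not for every gene. Symbols at 0 TPM made up 19.5% to 41.4% of each Th1_Vitro library and 8.2% to 23.9% of the others. In comparisons with Th1_Vitro, "rose" and "fell" are kept for genes called alike from values as deposited and from scaled values. Scaled values are those divided by the size factors. This scaling moved the median log2 difference of all genes by 0.68 to 0.76 in comparisons with Th1_Vitro and by at most 0.10 in the others. Replicate 2 of Tfh_TILS stood apart from replicates 1 and 3 of its group: all 9 genes were higher there than in any of the other 11 libraries. Each of 10 T cell identity genes (such as Cd3e, Cd4 and Lck) was at 35.6 TPM or more in all 12 libraries, which does not tell the 4 groups apart.

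Transcripts of the class II chains, the invariant chain and Cd86 were higher in the Tfh_TILS libraries than in those of either Tfh culture. Cd80 and the DM genes were not shown to differ. Against Tfh_Vitro, 5 of the 9 genes rose in Tfh_TILS (H2-Aa, H2-Ab1, H2-Eb1, Cd74 and Cd86), at a Benjamini-Hochberg adjusted p under 0.05 in limma over 23308 genes, of which 1.15% were called higher. The median log2 difference of the 9 was 2.34, against 0.10 for all genes tested. Against Tfh_OTII, 6 rose (the same genes and Ciita), where 7.97% of all genes were called higher, and the median of the 9 was 2.69 against 0.06. Against Th1_Vitro, 7 were called higher as deposited, where 49.3% of all genes were, and 3 after scaling (H2-Ab1, Cd80 and Cd86), where 11.1% were. The comparisons share the Tfh_TILS libraries and are not independent of each other. In bulk RNA, fewer cells that carry a transcript and less of it per cell cannot be told apart. Macrophage and monocyte markers summed to 89.2, 807 and 214 TPM in Tfh_TILS replicates 1, 2 and 3. The part of such cells in these differences was not tested.

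**Figure D1:**
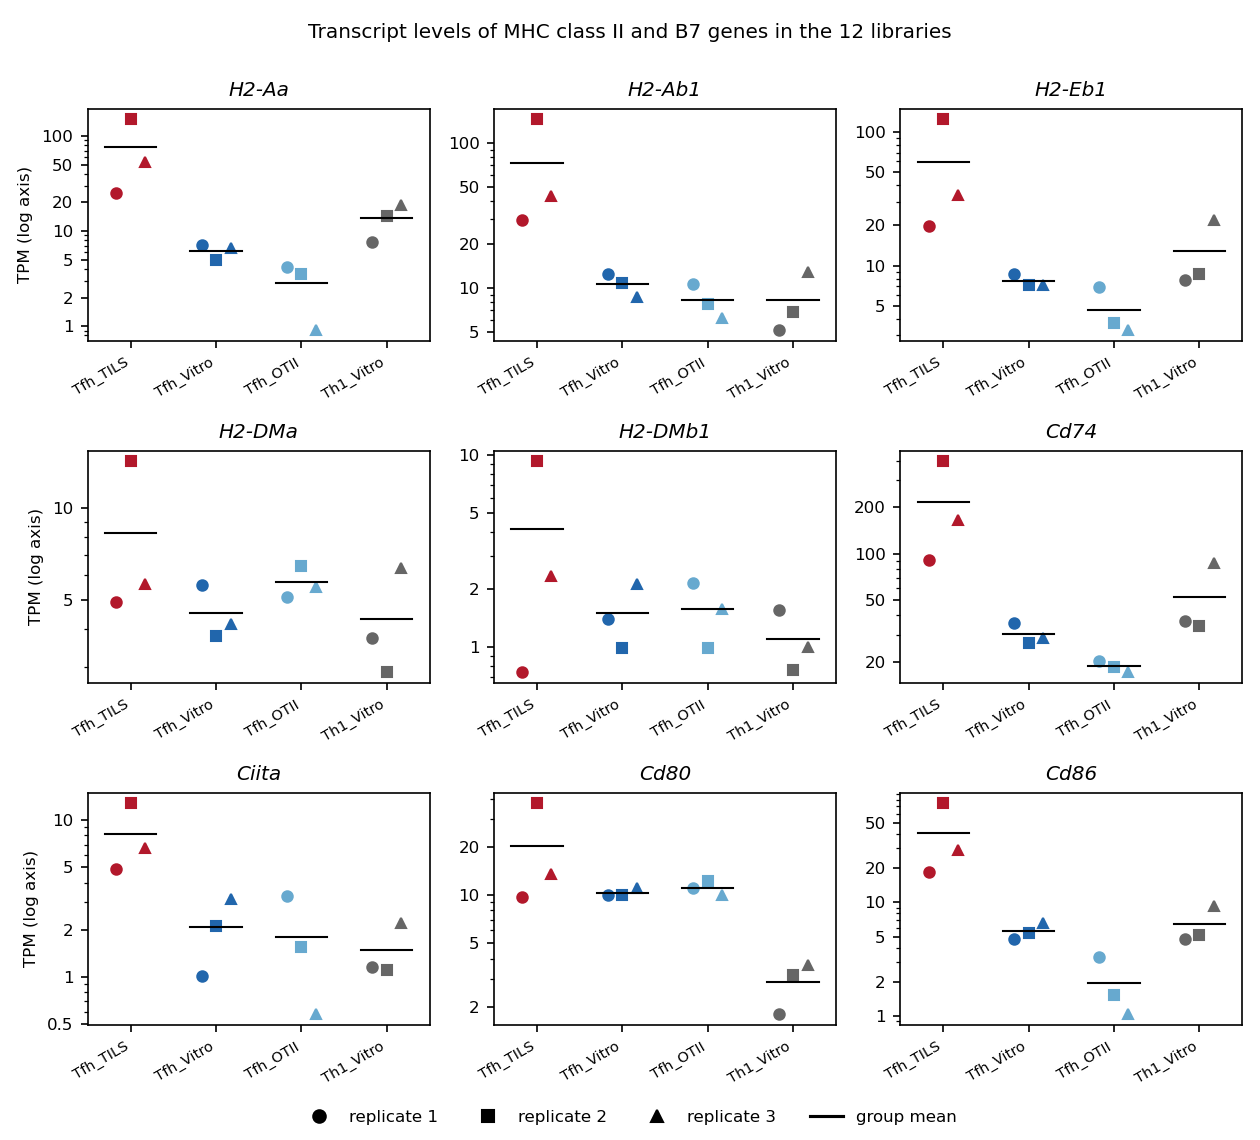
TPM (log axis) of each of the 9 genes by group; symbols are the 3 libraries of a group and lines the group means. Tfh_TILS replicate 2 is the highest library in every panel, and for H2-Aa, H2-Ab1, Cd74, Ciita and Cd86 all Tfh_TILS libraries lie above all 9 culture libraries in these values as deposited. After scaling, H2-Aa and Cd74 overlap with Th1_Vitro. The share of all genes that separate in this way was not counted.

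Ciita (chr16, 10480059 to 10528418, plus strand on GRCm38, GENCODE release 21), the master regulator of class II transcription, was at 4.87, 12.8 and 6.68 TPM in Tfh_TILS replicates 1, 2 and 3. It was at 1.01, 2.10 and 3.13 TPM in Tfh_Vitro, at 3.28, 1.55 and 0.580 TPM in Tfh_OTII and at 1.17, 1.11 and 2.21 TPM in Th1_Vitro. The Tfh_TILS libraries lay above all cultures, and the 3 cultures overlapped. The log2 difference from Tfh_OTII was 1.72 ± 0.43 (SE; fold 3.30, adjusted p = 0.0159), that from Tfh_Vitro 1.53 ± 0.43 (adjusted p = 0.0881) and that from Th1_Vitro 1.80 ± 0.43 as deposited (adjusted p = 0.00413) but 0.94 ± 0.35 after scaling (adjusted p = 0.0797). The call against Tfh_OTII was lost without Tfh_TILS replicate 2 (log2 1.38, adjusted p = 0.0656), without Tfh_OTII replicate 2 (adjusted p = 0.0511) and without Tfh_OTII replicate 3 (adjusted p = 0.0785). An exon of Ciita overlaps Dexi on the opposite strand. The libraries were stranded per the labels, and whether the quantification used the strand is not given in the sources used here.

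The DNA-binding partners of Ciita were not called higher in the tumour libraries than in the Tfh cultures. Of 8 genes of the transcription complex (Rfx5, Rfxap, Rfxank, Nfya, Nfyb, Nfyc, Creb1 and Atf1), 0 were called higher in Tfh_TILS by limma against either Tfh culture. Of all genes, 1.15% were called higher against Tfh_Vitro and 7.97% against Tfh_OTII, so 0 of 8 does not set these genes apart. At an unadjusted p under 0.05, 1 was higher and 1 lower against Tfh_Vitro, and 0 were higher and 2 lower against Tfh_OTII. Rfx5, which encodes the large RFX subunit, was at 12.7 to 18.4 TPM in Tfh_TILS, 12.7 to 13.2 TPM in Tfh_Vitro and 13.0 to 16.4 TPM in Tfh_OTII. Nfyb, a subunit of NF-Y, fell in Tfh_TILS against Tfh_OTII by 1.42 ± 0.23 on the log2 scale (SE; adjusted p = 0.00151), from 132 to 134 TPM in Tfh_OTII to 42.5 to 56.4 TPM, where 7.29% of all genes were called lower. Against Th1_Vitro, 7 of the 8 were called higher as deposited, where 49.3% of all genes were. Nfyb and Creb1 rose, being called under both scalings (Nfyb 1.90 ± 0.23 log2, adjusted p = 7.3e-05; 0.74 ± 0.20 scaled, adjusted p = 0.0199).

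Among genes of interferon gamma signalling, Irf8, a transcription factor of myeloid and B cells that activated T cells also express, rose in Tfh_TILS against each Tfh culture. It was at 83.8, 95.3 and 98.1 TPM in Tfh_TILS, 22.0 to 35.9 TPM in Tfh_Vitro and 20.6 to 28.0 TPM in Tfh_OTII. The log2 differences were 1.57 ± 0.35 (adjusted p = 0.0397) and 1.88 ± 0.35 (adjusted p = 0.00365), and the call against Tfh_Vitro was lost without Tfh_TILS replicate 2 (adjusted p = 0.107). The cytokine gene itself had another order: Ifng was at 68.1, 17.6 and 52.7 TPM in Tfh_TILS and lowest in the library where all 9 genes were highest. Ifng was at 56.7, 198 and 151 TPM in Th1_Vitro, and it fell in Tfh_TILS against this group (log2 -1.56 ± 0.50, adjusted p = 0.0212; -2.75 ± 0.54 scaled, adjusted p = 0.00452), where 0.601% of all genes were called lower as deposited and 8.26% scaled. Without Tfh_TILS replicate 2 it was not called (log2 -0.98, adjusted p = 0.0939).

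H2-Aa (chr17, 34282744 to 34287823, minus strand), the alpha chain of the I-A molecule, was at 25.0, 149.6 and 53.3 TPM in Tfh_TILS replicates 1, 2 and 3. The cultures were at 7.07, 4.95 and 6.67 TPM (Tfh_Vitro), 4.23, 3.51 and 0.909 TPM (Tfh_OTII) and 7.71, 14.5 and 18.6 TPM (Th1_Vitro). As deposited, no culture library reached the lowest tumour library, but after scaling Th1_Vitro replicates 2 and 3 (30.6 and 27.4) exceeded Tfh_TILS replicate 1 (21.8). Among the cultures Th1_Vitro was highest and Tfh_OTII lowest, with no overlap between these 3 groups. The gene rose in Tfh_TILS by 3.06 ± 0.55 log2 against Tfh_Vitro (SE; fold 8.34, adjusted p = 0.0145) and by 4.07 ± 0.55 against Tfh_OTII (fold 16.8, adjusted p = 0.000477). Against Th1_Vitro the log2 difference was 2.11 ± 0.55 (adjusted p = 0.00748), but 0.95 ± 0.49 when scaled (adjusted p = 0.19).

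H2-Ab1 (chr17, 34257689 to 34269419, plus strand), the beta chain of the same molecule, was at 29.3, 145 and 43.3 TPM in Tfh_TILS. It was at 12.4, 10.8 and 8.59 TPM in Tfh_Vitro, 10.7, 7.71 and 6.24 TPM in Tfh_OTII and 5.11, 6.86 and 12.9 TPM in Th1_Vitro. The 3 cultures overlapped and all lay below the tumour libraries. Its rise in Tfh_TILS was 2.34 ± 0.48 log2 against Tfh_Vitro (adjusted p = 0.0263), 2.69 ± 0.48 against Tfh_OTII (adjusted p = 0.00278) and 2.73 ± 0.48 against Th1_Vitro (adjusted p = 0.000684; 1.61 ± 0.42 after scaling, adjusted p = 0.0189). Of the 6 class II and invariant chain genes, H2-Ab1 was the one called higher than Th1_Vitro under both scalings.

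H2-Eb1 (chr17, 34305867 to 34316674, plus strand) encodes the beta chain of the I-E molecule, whose alpha chain gene is defective in this strain and is carried in the files as H2-Ea-ps. It was at 19.7, 124 and 33.5 TPM in Tfh_TILS, 8.65, 7.20 and 7.15 TPM in Tfh_Vitro and 6.86, 3.72 and 3.29 TPM in Tfh_OTII. In Th1_Vitro it was at 7.80, 8.66 and 21.9 TPM, and replicate 3 of that group exceeded the lowest tumour library. H2-Eb1 rose in Tfh_TILS by 2.37 ± 0.55 log2 against Tfh_Vitro (adjusted p = 0.045) and by 3.04 ± 0.55 against Tfh_OTII (adjusted p = 0.00281). The call against Tfh_Vitro was lost under 8 of 10 alternatives (adjusted p 0.0672 to 0.181): a pseudocount of 0.1, no filter, the replicate block (adjusted p = 0.0758) and without any 1 library of these groups other than Tfh_TILS replicate 1. Without Tfh_TILS replicate 2 the log2 difference was 1.63 (adjusted p = 0.0985). Against Th1_Vitro it was 1.84 ± 0.55 (adjusted p = 0.0147), but 0.70 ± 0.47 when scaled (adjusted p = 0.322). H2-Ea-ps stayed at or below 2.05 TPM in all 12 libraries.

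The transcript ratio of the 2 chains of I-A, which no scaling between libraries can change, had a separate range in each group. H2-Aa over H2-Ab1 in TPM was 0.855 to 1.23 in Tfh_TILS, 0.459 to 0.776 in Tfh_Vitro, 0.146 to 0.455 in Tfh_OTII and 1.44 to 2.11 in Th1_Vitro. The 4 ranges did not overlap. The lowest ratio was that of Tfh_OTII replicate 3, where H2-Aa was at 0.909 TPM. H2-Eb1 over H2-Ab1 was likewise 1.26 to 1.69 in Th1_Vitro and 0.483 to 0.852 in the 9 other libraries. These ratios are given as a description, with no test and no count of other gene pairs that separate the groups.

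Cd74 (chr18, 60803848 to 60812652, plus strand), the invariant chain that escorts class II molecules, had the highest level per length of the 9 genes in every library. It was at 90.7, 396 and 166 TPM in Tfh_TILS, 35.5, 26.7 and 28.7 TPM in Tfh_Vitro, 20.3, 18.6 and 17.2 TPM in Tfh_OTII and 36.6, 34.4 and 87.9 TPM in Th1_Vitro. Tfh_OTII was lowest and varied least, while the highest Th1_Vitro library came near the lowest tumour library and, after scaling, exceeded Tfh_TILS replicates 1 and 3. Cd74 rose in Tfh_TILS by 2.55 ± 0.46 log2 against Tfh_Vitro (adjusted p = 0.0134) and by 3.21 ± 0.46 against Tfh_OTII (adjusted p = 0.00061). The difference from Th1_Vitro was 1.89 ± 0.46 (adjusted p = 0.00463), but 0.69 ± 0.38 when scaled (adjusted p = 0.22). Cd74 over H2-Ab1 was 5.02 to 7.17 in Th1_Vitro and 1.91 to 3.83 elsewhere.

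The DM genes were not called in any of the 6 comparisons over all libraries. H2-DMa (chr17, 34119541 to 34139101, plus strand), the alpha chain of the peptide editor, was at 4.92, 14.2 and 5.64 TPM in Tfh_TILS and at 2.89 to 6.47 TPM in the 9 culture libraries. Replicates 1 and 3 of Tfh_TILS lay within the range of the cultures. H2-DMb1 (chr17, 34153072 to 34160230, plus strand), the beta chain, was at 0.741, 9.31 and 2.35 TPM in Tfh_TILS and at 0.760 to 2.17 TPM in the cultures, so that its lowest and its highest value were both tumour libraries. Against Tfh_Vitro the log2 differences were 0.63 ± 0.36 for H2-DMa (adjusted p = 0.493) and 0.67 ± 0.50 for H2-DMb1 (adjusted p = 0.651). Against Th1_Vitro as deposited, H2-DMb1 was called without Tfh_TILS replicate 1 (adjusted p = 0.0165) and H2-DMa without Th1_Vitro replicate 3 (adjusted p = 0.0441). H2-DMa over H2-Ab1 was 0.0977 to 0.168 in Tfh_TILS and 0.353 to 0.884 in the cultures. H2-DMb1 shares 31.4% of its stretches of 31 bases with its paralog H2-DMb2, so the division of reads between them is uncertain. H2-DMa overlaps an exon of Brd2 on the opposite strand.

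Of 5 other class II genes in the files (H2-Eb2, H2-Ea-ps, H2-DMb2, H2-Oa and H2-Ob), 0 were called against either Tfh culture by limma. Of all genes, 1.15% were called higher against Tfh_Vitro and 7.97% against Tfh_OTII, so 0 of 5 does not set these genes apart. At an unadjusted p under 0.05, 1 was higher against Tfh_Vitro and 3 against Tfh_OTII. H2-Oa and H2-Ob encode the DO heterodimer, which restrains DM and is a product of B cells. H2-Ob was at 4.40 to 5.21 TPM in Tfh_TILS and 2.53 to 3.10 TPM in both Tfh cultures, and H2-Oa was at 1.46 to 3.84 and 1.98 to 4.76 TPM. H2-Eb2, a second I-E type beta chain gene, was at 2.80, 7.37 and 3.16 TPM in Tfh_TILS and at most 3.01 TPM in the cultures.

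Of 8 genes that degrade the invariant chain and unfold antigens, 1 rose in Tfh_TILS against Tfh_Vitro and 5 against Tfh_OTII, where 1.15% and 7.97% of all genes were called higher. At an unadjusted p under 0.05, 7 and 8 were higher, and after scaling 3 were called against Tfh_Vitro and 4 against Tfh_OTII. Ctss, the cathepsin that cleaves the invariant chain in professional antigen-presenting cells, was at 118, 768 and 187 TPM in Tfh_TILS, 51.4, 41.7 and 48.7 TPM in Tfh_Vitro and 35.5, 36.8 and 37.1 TPM in Tfh_OTII. It rose by 2.42 ± 0.51 log2 against Tfh_Vitro (adjusted p = 0.0291) and by 2.78 ± 0.51 against Tfh_OTII (adjusted p = 0.00316). Lgmn, an endosomal asparaginyl protease, was at 22.0, 126 and 31.9 TPM in Tfh_TILS and rose against Tfh_OTII by 3.22 ± 0.54 log2 (adjusted p = 0.00177). Ctsh, Ifi30 and Sppl2a were the others called against Tfh_OTII, by 2.19, 1.43 and 0.95 log2, and without Tfh_TILS replicate 2 only Ctss, Ctsh and Lgmn of the 8 were called. March1, a ubiquitin ligase that removes class II molecules and Cd86 from the surface, was at 6.78, 19.1 and 7.93 TPM in Tfh_TILS and at most 2.96 TPM in the cultures. It rose by 1.92 ± 0.42 against Tfh_Vitro (adjusted p = 0.0359; not called without Tfh_TILS replicate 2) and by 2.28 ± 0.42 against Tfh_OTII (adjusted p = 0.0033).

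**Figure D2:**
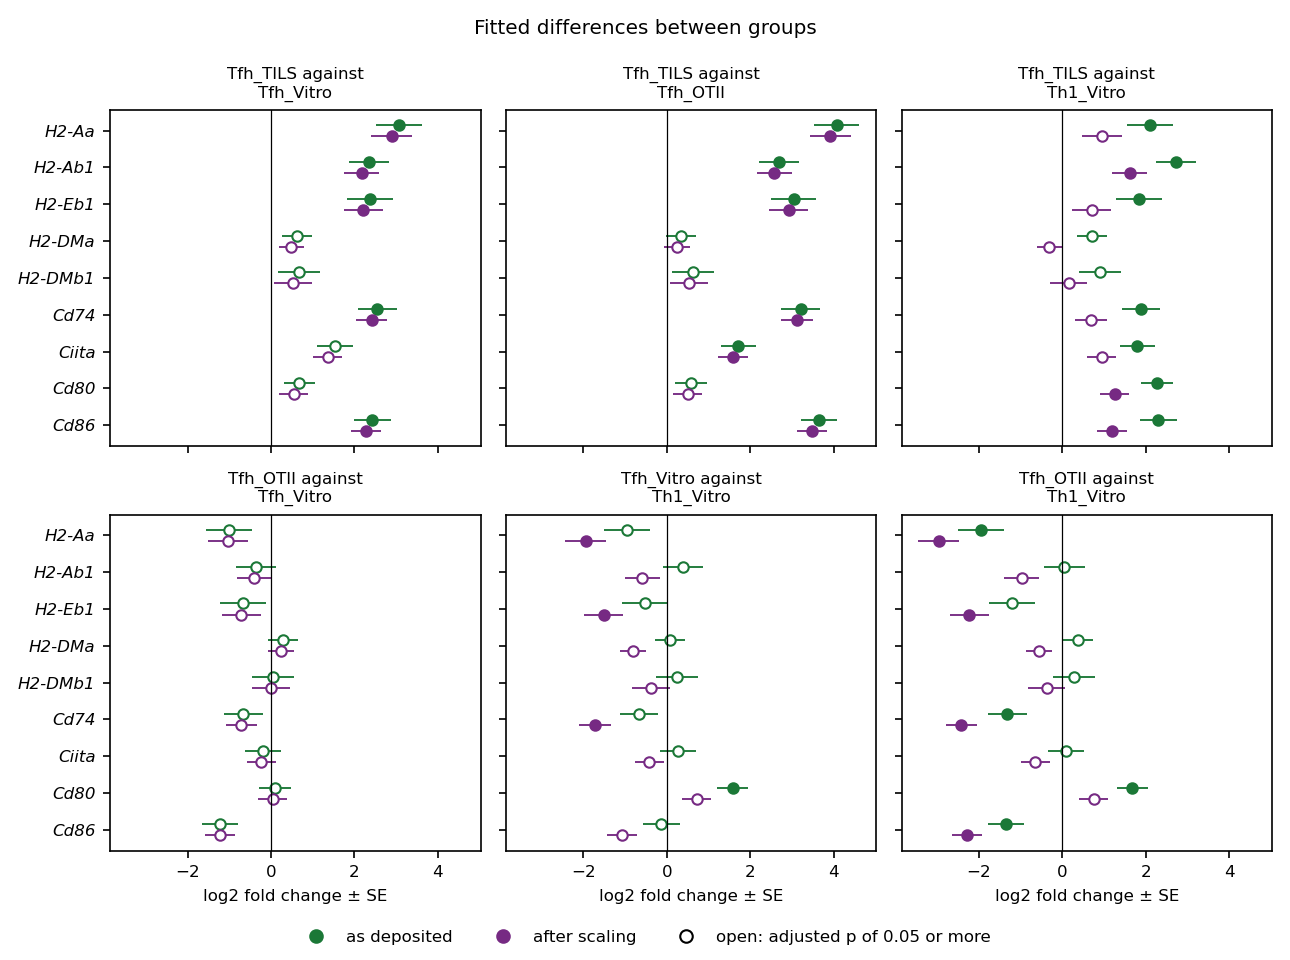
Fitted log2 fold changes (x axis, first group minus second; bars are SE) of the 9 genes in the 6 comparisons, from TPM as deposited and after scaling; filled points have an adjusted p under 0.05. The scalings nearly coincide in the 3 comparisons without Th1_Vitro and lie apart in the 3 with it, where Cd80 against Tfh_Vitro is called as deposited (1.58) but not after scaling (0.72).

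Of the B7 ligands, Cd86 rose in the tumour libraries against every culture and Cd80 only against Th1_Vitro. Cd86 (chr16, 36603869 to 36666081, minus strand), found on dendritic cells at rest and raised on activation, was at 18.4, 74.3 and 29.0 TPM in Tfh_TILS. It was at 4.71, 5.40 and 6.61 TPM in Tfh_Vitro, at 3.31, 1.53 and 1.04 TPM in Tfh_OTII and at 4.80, 5.15 and 9.20 TPM in Th1_Vitro. Tfh_TILS was highest without overlap, Tfh_OTII lowest without overlap, and Tfh_Vitro and Th1_Vitro overlapped as deposited. Cd86 rose in Tfh_TILS against all 3 cultures: by 2.43 ± 0.44 log2 against Tfh_Vitro (adjusted p = 0.0148), by 3.65 ± 0.44 against Tfh_OTII (adjusted p = 0.000222) and by 2.30 ± 0.44 against Th1_Vitro (adjusted p = 0.00118; 1.20 ± 0.36 after scaling, adjusted p = 0.0361).

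Cd80 (chr16, 38455561 to 38496335, plus strand), the other ligand, was at 9.68, 37.4 and 13.6 TPM in Tfh_TILS, 10.0, 9.95 and 11.1 TPM in Tfh_Vitro and 11.1, 12.3 and 9.99 TPM in Tfh_OTII. In Th1_Vitro it was at 1.80, 3.18 and 3.64 TPM. The 3 groups of Tfh cells overlapped, and all 9 of their libraries lay above Th1_Vitro. The log2 differences of Tfh_TILS were 0.68 ± 0.38 from Tfh_Vitro (adjusted p = 0.492) and 0.58 ± 0.38 from Tfh_OTII (adjusted p = 0.349), and they were 0.14 and 0.04 without Tfh_TILS replicate 2. Against Th1_Vitro, Cd80 rose in Tfh_TILS by 2.26 ± 0.38 (adjusted p = 0.000543; 1.25 ± 0.35 scaled, adjusted p = 0.0246). For both Tfh cultures the difference from Th1_Vitro was called as deposited, at 1.58 ± 0.38 (adjusted p = 0.00609) and 1.68 ± 0.38 (adjusted p = 0.00361), but not after scaling, at 0.72 ± 0.35 (adjusted p = 0.185) and 0.75 ± 0.35 (adjusted p = 0.142).

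The ratio of Cd86 to Cd80 in TPM varied little among the tumour libraries, although both levels were highest in replicate 2: it was 1.90, 1.99 and 2.14 in Tfh_TILS. It was 0.470, 0.542 and 0.596 in Tfh_Vitro, 0.298, 0.124 and 0.104 in Tfh_OTII and 2.67, 1.62 and 2.53 in Th1_Vitro. Tfh_TILS and Th1_Vitro overlapped, with Cd86 above Cd80 in all 6 of their libraries, and both Tfh cultures had Cd80 above Cd86. In exact two-sided permutation tests of the log2 ratio, 5 of 6 pairs of groups reached p = 0.1 (Benjamini-Hochberg 0.12 over the 6), the smallest that 3 libraries against 3 allow, and Tfh_TILS against Th1_Vitro gave p = 0.5.

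**Figure D3:**
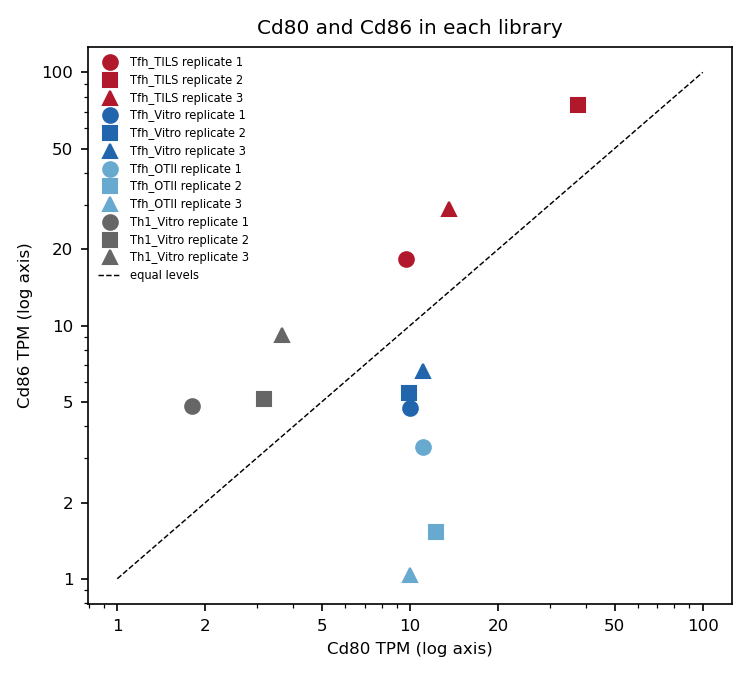
Cd86 against Cd80 in TPM (both axes log) in the 12 libraries; colours are groups, symbols replicates, and the dashed line marks equal levels. Tfh_TILS and Th1_Vitro lie above the line, with ratios of 1.62 to 2.67, and both Tfh cultures below it, with ratios of 0.104 to 0.596.

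Of 5 other ligands of the B7 family that were tested, 1 rose in Tfh_TILS against Tfh_Vitro and 3 against Tfh_OTII. The shares of all genes called higher were 1.15% and 7.97%. Cd274, which encodes PD-L1, the ligand of the PD1 receptor used in the sort, was at 152, 246 and 138 TPM in Tfh_TILS, 61.7 to 89.4 TPM in Tfh_Vitro and 30.7 to 32.8 TPM in Tfh_OTII. It rose by 1.25 ± 0.24 log2 (adjusted p = 0.0203) and 2.42 ± 0.24 log2 (adjusted p = 7.31e-05), and both calls held without Tfh_TILS replicate 2. Vsir and Pdcd1lg2 also rose against Tfh_OTII, by 1.51 and 0.96 log2, and the call of Pdcd1lg2 was lost without Tfh_TILS replicate 2 (adjusted p = 0.0942). Neither receptor of Cd80 and Cd86 was called against the Tfh cultures by limma, nor had either an unadjusted p under 0.05. Cd28, which T cells use to receive the signal, was at 113 to 186 TPM in Tfh_TILS and 131 to 163 TPM in both Tfh cultures. Ctla4 was at 154, 532 and 199 TPM in Tfh_TILS, 154 to 199 TPM in Tfh_Vitro and 134 to 147 TPM in Tfh_OTII.

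Between the cultures fewer of the 9 genes were called. Against Tfh_Vitro, 0 of 9 were called in Tfh_OTII by limma and 1, Cd86, had an unadjusted p under 0.05 (log2 -1.22 ± 0.44, adjusted p = 0.217), where 0.987% of all genes were called higher and 1.39% lower. Tfh_OTII against Th1_Vitro had 3 genes lower as deposited, where 1.16% of all genes were, and 4 after scaling, where 8.78% were. Cd80 was the 1 gene higher as deposited, where 42.7% of all genes were. H2-Aa fell in Tfh_OTII by 1.96 on the log2 scale as deposited (SE 0.55, adjusted p = 0.0121), Cd74 by 1.32 (SE 0.46, adjusted p = 0.032) and Cd86 by 1.35 (SE 0.44, adjusted p = 0.026), and H2-Eb1 joined them after scaling (log2 -2.23 ± 0.47, adjusted p = 0.00515). The call of H2-Aa held without any 1 library, while those of Cd74 and Cd86 were lost without Tfh_OTII replicate 2, without Tfh_OTII replicate 3 or without Th1_Vitro replicate 3 (adjusted p 0.0699 to 0.122 for Cd74 and 0.0716 to 0.0886 for Cd86), and that of Cd74 also without Tfh_OTII replicate 1 (adjusted p = 0.0677). Tfh_Vitro against Th1_Vitro had 1 gene higher as deposited (Cd80), where 41.1% of all genes were, and 3 lower after scaling (H2-Aa, H2-Eb1 and Cd74), where 5.88% were. None of these 4 was called both ways.

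Transcripts of other cell types differed between the tumour and culture libraries together with the class II genes. The 12 macrophage and monocyte markers summed to 89.2, 807 and 214 TPM in Tfh_TILS replicates 1, 2 and 3, to 14.7 to 37.0 TPM in both Tfh cultures and to 11.4 to 14.0 TPM in Th1_Vitro. All 12 were above 0 in each Tfh_TILS library, with Lyz2 at 34.1, 309 and 82.0 TPM, Cd68 at 10.8, 130.3 and 34.0 TPM, Cd14 at 3.73, 88.5 and 18.7 TPM and C1qa at 0.658, 6.10 and 1.06 TPM. Of the 12, 6 were called higher in Tfh_TILS against Tfh_Vitro and 8 against Tfh_OTII, where 1.15% and 7.97% of all genes were. Without replicate 2, 10 of the 12 passed the filter, and 3 were called higher against Tfh_Vitro and 8 against Tfh_OTII. In the cultures Adgre1 was at 0 in Tfh_OTII replicate 3, C1qa in Th1_Vitro replicates 2 and 3, and Fcgr1 in Th1_Vitro replicate 1. The 6 class II and invariant chain genes summed to 170 TPM, 839 TPM and 304 TPM in the same libraries, in the same order, against 34.7 to 70.6 TPM in the Tfh cultures. The part of these cells in the class II and B7 results was not tested.

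The sums of the neutrophil, dendritic cell, epithelial and T cell identity lists ranked the tumour libraries in that order too. Those of the B cell list and of the fibroblast and endothelial list did not. The T cell identity genes summed to 2009, 3612 and 2128 TPM in Tfh_TILS replicates 1, 2 and 3, so the order was not particular to myeloid markers. The 5 neutrophil markers summed to 7.54, 479.7 and 76.0 TPM in Tfh_TILS and to 4.99 to 15.6 TPM in the Tfh cultures, so replicate 1 lay within the range of the cultures. The 10 B cell markers summed to 92.1, 76.2 and 77.6 TPM in Tfh_TILS and 42.8 to 64.9 TPM in Tfh_Vitro. They summed to 18.8 to 44.9 TPM in Tfh_OTII and 28.5 to 40.9 TPM in Th1_Vitro. Of these markers, 5 of the 10 were called higher in Tfh_TILS against Tfh_OTII, where 7.97% of all genes were. Against Tfh_Vitro limma called 0, and 4 were higher at an unadjusted p under 0.05. The 10 dendritic cell markers summed to 109 to 139 TPM in Tfh_TILS and 124 to 212 TPM in the cultures, but Ccr7, which T cells also express, made up 39.9% of that sum in Tfh_TILS replicate 2 and 69.5% to 93.3% in the other libraries. The 9 markers without Ccr7, set apart after the values were seen, summed to 25.5, 83.7 and 38.3 TPM in Tfh_TILS and to 9.47 to 33.7 TPM in the cultures, so replicate 1 lay within the range of the cultures. Of the 10, Zbtb46 and Siglech were called higher and Batf3 lower in Tfh_TILS against Tfh_OTII (Siglech and Batf3 also without replicate 2). In that comparison 7.97% of all genes were called higher and 7.29% lower. Against Tfh_Vitro limma called 0 of the 10, and at an unadjusted p under 0.05 there were 4 higher (Flt3, Zbtb46, Itgax and Siglech) and 2 lower. The part of these cells in the results was not tested either.

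**Figure D4:**
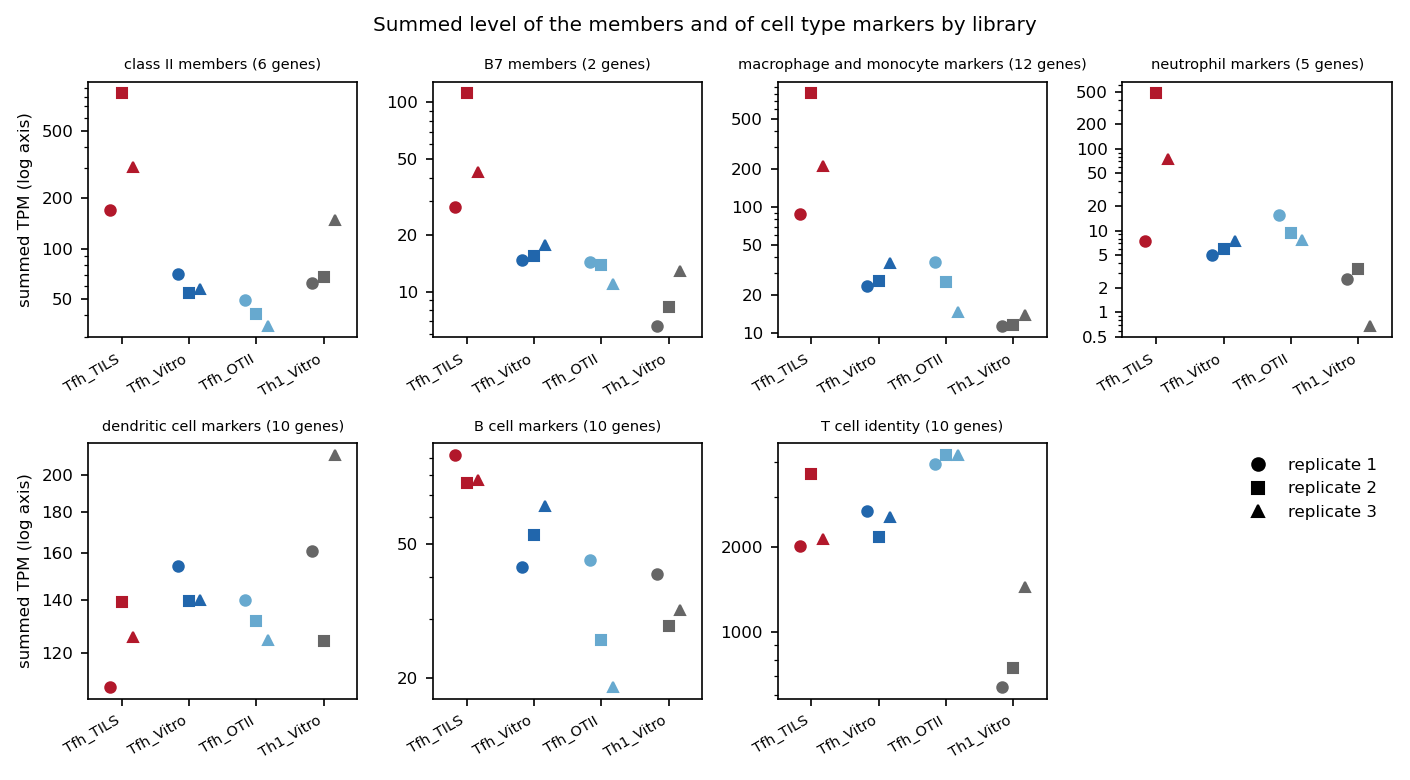
Summed TPM (log axis) of the 6 class II and invariant chain genes, of Cd80 and Cd86, and of 5 marker lists in each library, by group. The class II sum, the B7 sum and the macrophage and monocyte sum rank the 3 Tfh_TILS libraries alike, with replicate 2 highest (839, 112 and 807 TPM), while the B cell sum is 76.2 to 92.1 TPM in all 3. The T cell identity sum has the same order (2009, 3612 and 2128 TPM in replicates 1, 2 and 3).

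Replicate 2 of Tfh_TILS was set against the mean of replicates 1 and 3 for each gene. The 9 genes were 2.22 to 6.03 times as high there, with a median of 3.22, whereas the median over 20439 genes was 1.10. H2-DMb1 had the highest of these ratios and Ciita the lowest. The median ratio was 4.01 for the proteases, 5.21 for the macrophage and monocyte markers, 8.58 for the neutrophil markers, 1.52 for T cell identity genes, 1.28 for the transcription complex and 1.03 for the B cell markers. Without this library, 4 of the 5 genes called against Tfh_Vitro were still called, at log2 differences of 2.39 for H2-Aa, 1.67 for H2-Ab1, 1.99 for Cd74 and 1.89 for Cd86 (adjusted p 0.0246 to 0.0424). Against Tfh_OTII the 5 genes other than Ciita were still called, at 2.02 to 3.40. In the 2 libraries that remain, the macrophage and monocyte markers still summed to 89.2 and 214 TPM, above every culture.

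**Figure D5:**
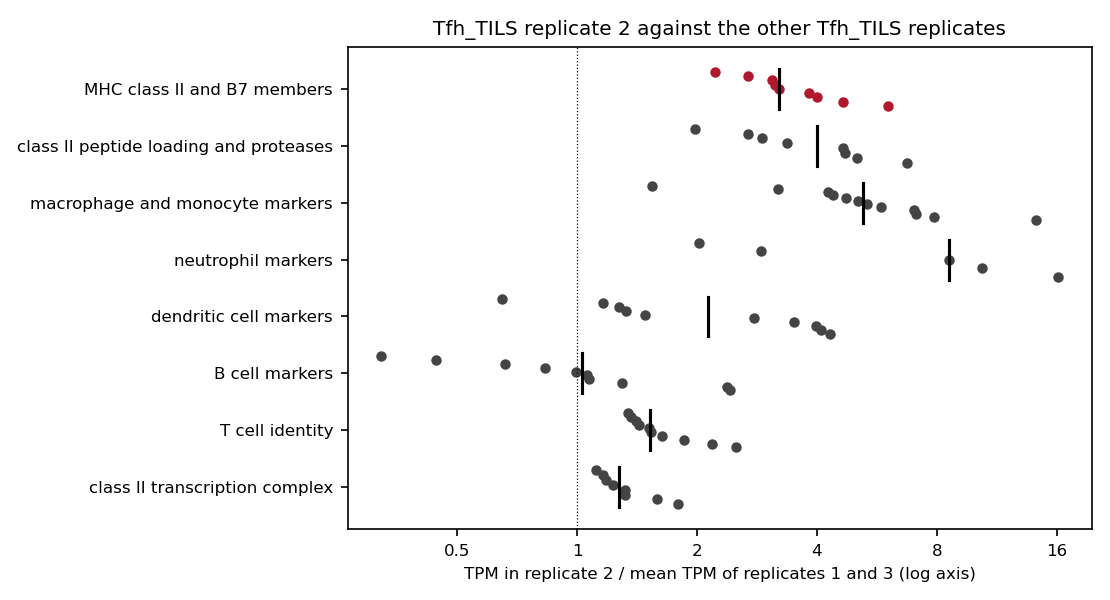
TPM in Tfh_TILS replicate 2 divided by the mean of replicates 1 and 3 (log axis), 1 point per gene, with the median of each list as a bar. All 9 genes lie at 2.22 or above, and the B cell markers centre on 1.03.

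The call against Tfh_Vitro also depended on the culture libraries. Without Tfh_Vitro replicate 1 or replicate 2, 0 of the 9 genes passed limma's adjusted threshold and 6 had an unadjusted p under 0.05, and without replicate 3 only Cd86 passed. The fitted differences themselves moved little, with H2-Aa at 2.92 to 3.14 log2 and Cd86 at 2.34 to 2.42 without replicate 1 or 2. The number of all genes called fell in the same fits from 489 to between 94 and 193. Without Tfh_TILS replicate 3, Cd74 and Cd86 were called, and H2-Aa (adjusted p = 0.051), H2-Ab1 (adjusted p = 0.0585) and H2-Eb1 (adjusted p = 0.0949) were not.

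The genes whose level followed the class II genes most closely over the 12 libraries were sought among 10663 candidates, by Pearson correlation on log2(TPM + 1) with the mean standardised level of the 6 class II and invariant chain genes. Among the 8 highest were Cd68 (r = 0.980), a lysosomal protein of macrophages, Rhob (0.977), a small GTPase, Ifrd1 (0.976), Ccnd1 (0.972), a D-type cyclin, Atp6v0c (0.972), a subunit of the proton pump that acidifies endosomes, Igsf6 (0.972) and Syk (0.970), the kinase downstream of B cell and Fc receptors. Cd68 was at 10.8, 130.3 and 34.0 TPM in Tfh_TILS and at 2.22 to 5.34 TPM in the cultures. Without Tfh_TILS replicate 2 these correlations were 0.902 to 0.945. These libraries share their groups and a fixed TPM total, and the values are a description.

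Ciita, Cd80 and Cd86 had different nearest genes. Ciita was closest to Acer3 (r = 0.978), a ceramidase, Rasgef1b (0.977) and Blnk (0.974), the B cell linker adaptor, which was at 5.04, 9.31 and 5.77 TPM in Tfh_TILS and 1.41 to 3.58 TPM in the cultures. Cd86 was closest to Isg15 (0.986), a ubiquitin-like protein induced by type I interferon, at 47.8, 443 and 89.7 TPM in Tfh_TILS and 1.97 to 21.9 TPM in the cultures, followed by Bst1 (0.963). Cd80 was closest to the sorting nexin Snx2 (0.985), Edem1 (0.984), which acts in degradation of misfolded glycoproteins, and the sterol transporter Abcg1 (0.983). Snx2 was at 62.4, 193 and 79.9 TPM in Tfh_TILS, 43.6 to 61.4 TPM in both Tfh cultures and 8.75 to 16.5 TPM in Th1_Vitro. Among the 9 genes, Cd86 correlated with the class II mean at 0.924 (0.897 without Tfh_TILS replicate 2) and Cd80 at 0.609 (0.180 without it). Cd80 correlated with Cd86 at 0.442 (0.025 without that library). All these correlations used values as deposited, which run low for the typical gene of Th1_Vitro, and they were not repeated on scaled values.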

How the data were processed

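The deposited files hold TPM per gene symbol, 1 file per library; per the submitters' processing notes the authors used kallisto and mm10, and its version, the annotation and any strand setting are not given in the sources used here. Per the labels, ribosomal RNA was removed before stranded libraries were made and read as pairs of 75 bases. No counts were used, so depth is unknown and no counting interval can be given. The 23308 genes whose group mean reached 1 TPM in any group were fitted with limma 3.58.1 (R 4.3.3; all 12 libraries, a mean for each group, trended prior variance) on log2(TPM + 1), and p-values were adjusted by Benjamini-Hochberg over all genes tested. Fold changes are on the log2(TPM + 1) scale, which understates changes of low genes. Scaled values were divided by median-of-ratios size factors over 16404 genes (21916 tested). On values simulated for Tfh_TILS against Tfh_Vitro (21101 genes), 28% of 50 genes changed by log2 1, 72% of 50 changed by log2 2, 98% of 50 changed by log2 3 and 0.04% of unchanged genes were called. The simulated noise was normal, with a spread per gene averaged over the groups, and the changed genes had a mean log2(TPM + 1) above 2. These rates therefore do not cover a group with a wider spread than the others, or genes at lower levels. The 9 genes, the pathway and marker lists and the tests were chosen with earlier results of these data known. All 9 genes are named, with up to 4 called genes of each pathway list by size of change, any that a result turns on, and the 8 or 3 genes of highest correlation among tested genes whose mean reached 5 TPM in any group; some genes that these rules name are not reported here. Alternatives were the scaling, a pseudocount of 0.1, no filter, the replicate number as a block and each library left out. Positions are from GENCODE release 21. Python 3.11.15, pandas 2.3.3, scipy 1.17.1 and matplotlib 3.10.9 were used for tables, exact tests and figures.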

Additional observations from a re-analysis of the deposited data

How the results depend on the processing

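Of 54 results for single genes (9 genes in 6 comparisons), 51 kept their call and direction without the filter, 53 with a pseudocount of 0.1 and 35 after scaling (6 lost and 4 gained a call); 9 changed direction after scaling, all in comparisons with Th1_Vitro and none of them called. These were H2-DMa in Tfh_TILS against Th1_Vitro (log2 -0.31), H2-Ab1 (-0.58), H2-DMa (-0.80), H2-DMb1 (-0.38) and Ciita (-0.42) in Tfh_Vitro against Th1_Vitro, and H2-Ab1 (-0.97), H2-DMa (-0.57), H2-DMb1 (-0.38) and Ciita (-0.65) in Tfh_OTII against Th1_Vitro. Genes called of the 9 changed from 7 to 3 after scaling in Tfh_TILS against Th1_Vitro, from 1 to 3 in Tfh_Vitro against Th1_Vitro, and from 5 to 3 without the filter in Tfh_TILS against Tfh_Vitro, where more genes are tested. With 1 library of the compared groups left out, the number called ranged from 0 to 5 in Tfh_TILS against Tfh_Vitro and from 2 to 4 in Tfh_OTII against Th1_Vitro, where 5 were called without Tfh_TILS replicate 2, which enters the shared estimate of the spread. All genes called changed after scaling from 11641 to 4239 (Tfh_TILS against Th1_Vitro), 9688 to 3381 (Tfh_Vitro against Th1_Vitro) and 10226 to 4766 (Tfh_OTII against Th1_Vitro), and with a pseudocount of 0.1 from 489 to 262 (Tfh_TILS against Tfh_Vitro) and from 555 to 359 (Tfh_OTII against Tfh_Vitro). With 1 such library left out they ranged from 94 to 882 in Tfh_TILS against Tfh_Vitro, 2011 to 3411 in Tfh_TILS against Tfh_OTII, 144 to 457 in Tfh_OTII against Tfh_Vitro and 6336 to 10380 in Tfh_Vitro against Th1_Vitro. Uncalled genes whose direction changed with 1 library left out were, in Tfh_TILS against Tfh_Vitro, H2-DMb1 (-0.03 to 1.25), in Tfh_TILS against Tfh_OTII H2-DMa (-0.09 to 0.59) and H2-DMb1 (-0.07 to 1.21), in Tfh_OTII against Tfh_Vitro H2-DMb1 (-0.12 to 0.21) and Ciita (-0.56 to 0.16), in Tfh_Vitro against Th1_Vitro H2-DMa (-0.11 to 0.35) and Cd86 (-0.28 to 0.13), and in Tfh_OTII against Th1_Vitro H2-Ab1 (-0.21 to 0.38) and Ciita (-0.28 to 0.43). Where an arm has fewer samples the test has less power; for the other changes the cause was not tested. Same-numbered libraries of different groups correlated at -0.386 to 0.303 in their deviations from the group means (18 pairs, 3 over 0.1) and others at -0.277 to 0.358 (36 pairs, 11 over 0.1), so the numbers were not taken as pairs. With the replicate block, 279 genes in place of 489 were called in Tfh_TILS against Tfh_Vitro, H2-Eb1 was no longer called there (adjusted p = 0.0758), and the other 53 results kept their call. Depth is unknown, so the reads behind a low level, as for H2-DMb1, cannot be given.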
